A study of Mus musculus with 3 samples.

Results

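The genes described here encode the constitutive proteasome and its activators in 4T1 cells, a mouse mammary carcinoma line. They were chosen by name, as every probe set whose array annotation gives 1 of 35 listed genes as its only symbol. Of the 35 genes, 34 had such a probe set, among 18193 named genes on the array, and together they had 77 of the 45037 probe sets. The missing gene is Psme2, for which the annotation of its probe set also lists the copy Psme2b, and it is not analysed here. The list holds 7 subunits of the α ring, 7 of the β ring, 6 of the ATPase ring, 3 other subunits of the base, 8 of the lid and 4 activators. Psme4 encodes PA200 and not a PA28 subunit, so the activators are taken as PA28 and PA200 genes.

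RNA was measured on 3 arrays, with 1 for each condition and no replicates. In co-culture, the cells had been in contact with MSCs (most often mesenchymal stem or stromal cells) for 1 week and were then isolated from the mixture. In conditioned medium, they had been kept for 1 week in medium taken from MSCs. In regular medium, they had neither, and the time in culture is not given in the sources used here. All groups share a base medium of RPMI with 10% FBS. Neither the origin of the MSCs nor the way the 4T1 cells were isolated is given in the sources used here, and contact and isolation cannot be told apart. Since the arrays measured bulk RNA, fewer cells of a type and less RNA per cell cannot be told apart either.

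The proteasome degrades proteins tagged with ubiquitin. Its core is a barrel in which outer α rings gate the entrance and inner β rings carry the protease sites. A regulatory particle on the barrel binds ubiquitin chains through its base and lid, removes the chains, and unfolds the substrate with a ring of ATPases. PA28 and PA200 are alternative caps. Under interferon, cells add PA28α and PA28β and exchange the catalytic β subunits for those of the immunoproteasome, which serves antigen presentation. The transcription factor NRF1 (Nfe2l1) raises proteasome genes when proteasome activity falls short.

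Promoter sequences were taken from RefSeq (GRCm38.p6) for 29 of the 35 genes, as windows of 250 bases before and 50 after the start. Sequences are shown for 4 members that carry letters NRF1 or interferon factors are known to use, and for Psma2, which has the lowest value of the α ring and carries a CCAAT box, a common promoter element. The first 4 are the 250 bases before the start, written 5′ to 3′ on the gene's strand. Capitals mark the antioxidant response element core TGACNNNGC in Psmb5, Psmb6 and Psmd12 (reversed in Psmd12), CCAAT in Psma2, and the reversed core of the interferon-stimulated response element (GAAA repeated after any 2 bases) in Psme1, whose printed stretch runs from the last base before the start into the gene. They lie at chr14:54617996-54618245 (minus strand), chr11:70525107-70525356, chr11:107479278-107479527, chr13:14612992-14613241 and chr14:55578493-55578522 (plus strand).
Psmb5: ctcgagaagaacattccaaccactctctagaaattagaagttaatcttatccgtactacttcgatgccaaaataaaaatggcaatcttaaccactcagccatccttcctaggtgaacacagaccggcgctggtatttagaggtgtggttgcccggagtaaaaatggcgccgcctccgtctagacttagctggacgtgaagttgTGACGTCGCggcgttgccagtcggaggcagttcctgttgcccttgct
Psmb6: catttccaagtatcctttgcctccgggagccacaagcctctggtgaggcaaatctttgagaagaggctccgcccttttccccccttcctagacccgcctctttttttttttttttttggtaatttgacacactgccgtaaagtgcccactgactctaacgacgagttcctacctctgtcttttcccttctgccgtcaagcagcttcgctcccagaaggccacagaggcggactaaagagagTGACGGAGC
Psmd12: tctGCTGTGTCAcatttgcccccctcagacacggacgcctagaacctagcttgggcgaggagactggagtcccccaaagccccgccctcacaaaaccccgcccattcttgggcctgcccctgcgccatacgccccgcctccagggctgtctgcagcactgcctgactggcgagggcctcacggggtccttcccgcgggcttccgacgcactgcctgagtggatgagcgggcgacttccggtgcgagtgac
Psma2: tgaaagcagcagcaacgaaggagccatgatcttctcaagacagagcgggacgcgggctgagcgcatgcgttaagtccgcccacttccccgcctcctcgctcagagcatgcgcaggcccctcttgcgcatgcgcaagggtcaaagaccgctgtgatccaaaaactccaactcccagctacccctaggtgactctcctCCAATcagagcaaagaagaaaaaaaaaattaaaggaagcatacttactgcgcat
Psme1: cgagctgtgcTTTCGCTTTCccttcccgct

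TGACNNNGC on either strand was present in 5 of the 29 members (17.2%), namely Psmb5, Psmb6, Psmc6, Psmd12 and Psme4, and in 14.0% of all 27025 genes with a promoter window. CCAAT was present in 11 members (37.9%), against 41.1% of all genes. The interferon-stimulated response element core was present in 3 members (10.3%), namely Psmb3, Psmd4 and Psme1, against 3.99% of all genes. The gamma-activated site TTCNNNGAA was present in 1 member, Psmd2, against 9.55% of all genes. None of these motifs overlapped another in the printed sequences, and a match describes letters only.

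On all 3 arrays the cells carried epithelial markers, with all 8 (Krt7, Krt8, Krt18, Krt14, Epcam, Cdh1, Cldn4 and Cldn7) at bright signals and a summed signal of 86003 in co-culture, 70114 in conditioned medium and 67499 in regular medium. Krt14 went against the sum, with 439 in co-culture, 1263 in conditioned medium and 1218 in regular medium, a log2 difference of -1.47 in co-culture against regular medium, and another bright probe set gave -1.45. Every one of the 34 proteasome genes was bright on every array. Signals are MAS5 units on a linear scale, with a floor of 42.4 set under all signals and 149.3 taken as the level from which a gene counts as measured. The lowest proteasome signal on any array was 1349 and the highest was 16178, and the median member was brighter than 94.1% of the 9452 measured genes. Signals of different probe sets are not comparable as levels, so only differences between arrays are read for each gene.

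**Figure D1:**
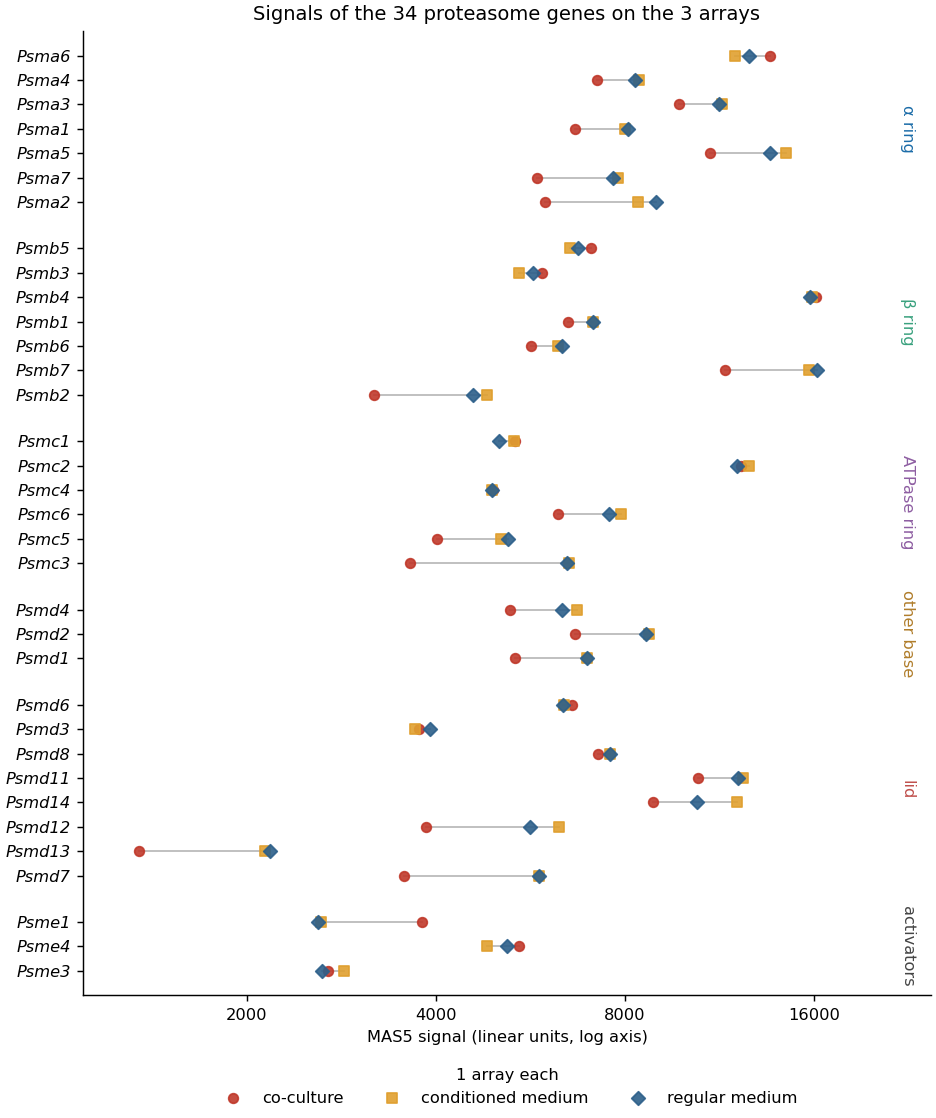
MAS5 signals (log axis) of the 34 proteasome genes, by part of the complex, with 1 point per array for co-culture, conditioned medium and regular medium. The points of conditioned and regular medium lie close together for nearly every gene, while those of co-culture lie to the left of regular medium for 23 genes and furthest to the left for Psmc3, with Psme1 furthest to the right.

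Contact co-culture was compared with regular medium to describe the cells after 1 week with MSCs. Most genes of the core and the regulatory particle had somewhat lower signals in co-culture, and no member differed by 2-fold. The median log2 difference over the 34 genes was -0.21 (interquartile range -0.38 to 0.03), and it was 0.07 (-0.26 to 0.42) over all measured genes. Signals were lower in co-culture for 23 of 34 members (67.6%), against 44.0% of the 9393 genes tested. The largest differences were Psmc3 at -0.83 and Psme1 at 0.55. The count of lower members ran between 20 and 31 over the settings tried. It was 20 of 34 after scaling the arrays to equal medians, where 33.0% of all measured genes were lower, and 31 of 34 with the median of all measured genes set to 0, which fixes their share at 50%. No test was possible with 1 array a group.

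Of the 34 members, 0 were at least 2-fold higher and 0 at least 2-fold lower, against 5.81% and 2.76% of all genes tested. At 1.5-fold, 4 members were lower by their brightest probe set (11.8%), against 9.86% of all genes, and 0 were higher, against 16.9% of all genes. The share of members past 1.5-fold on the low side was therefore near the background. Below that size the members stood lower than all genes, with 15 of 34 members (44.1%) below -0.25, against 25.3% of all measured genes and 30.6% of those above the 95th percentile of signal. On the high side, 1 member (2.94%) lay above 0.25, against 35.8% of all measured genes and 25.8% of those above the 95th percentile. The 90th percentiles were 0.06 for the members and 0.79 for all measured genes, and the 10th percentiles were -0.58 for both.

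The brightness of the members touches this comparison, since brighter genes had lower differences in co-culture. The median over all genes was 0.04 above the 80th percentile of signal, 0.01 above the 90th and -0.04 above the 95th. Among the 1556 genes above the 95th percentile, 54.2% were lower in co-culture, beside 68.8% of the 32 members that passed the same level. Its part in the members' median was not tested.

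**Figure D2:**
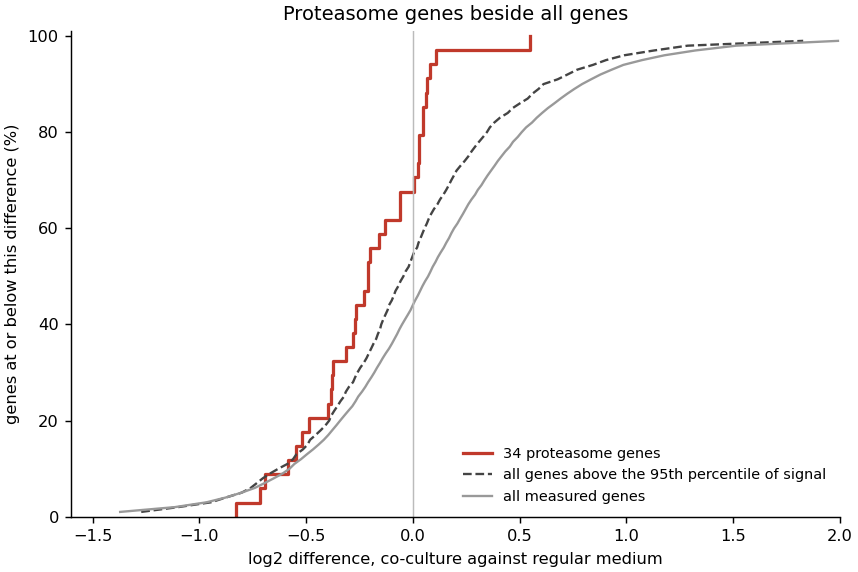
Cumulative share of genes (percent) by log2 difference in signal, co-culture against regular medium, for the 34 proteasome genes, all genes above the 95th percentile of signal and all measured genes. The curves meet near -0.58, the 10th percentile of the members and of all measured genes, and above it the members' curve lies to the left, with 44.1% of members below -0.25 against 25.3% of all measured genes and all members except Psme1 at 0.11 or below.

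The α ring, which gates the barrel, had 6 of its 7 genes lower in co-culture, with a median log2 difference of -0.28. Psma2 had the lowest value of the ring, with signals of 5962 in co-culture, 8376 in conditioned medium and 8949 in regular medium. Its log2 difference of -0.59 was just past the 1.5-fold size. Psma6 was the exception, with 13583 in co-culture, 11982 in conditioned medium and 12579 in regular medium, a log2 difference of 0.11. The name of that probe set marks possible cross-hybridisation. Another bright probe set, without the mark, gave 0.01, and a dimmer marked one gave 0.30. The other 5 genes lay between -0.40 (Psma7) and -0.20 (Psma4). Their second bright probe sets, where present, gave -0.64 for Psma5 and -0.61 for Psma7, both past 1.5-fold, and -0.25 for Psma3 and -0.11 for Psma1.

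The β ring holds the protease sites, and its catalytic genes differed among themselves. Psmb5, the chymotrypsin-like subunit, had signals of 7051 in co-culture, 6540 in conditioned medium and 6739 in regular medium, a difference of 0.07. Psmb6, the caspase-like subunit, had 5676 in co-culture, 6249 in conditioned medium and 6342 in regular medium, a difference of -0.16. Psmb7, the trypsin-like subunit, had 11548 in co-culture, 15702 in conditioned medium and 16178 in regular medium, a difference of -0.49. Psmb7 was thus low on the co-culture array and Psmb5 was not. Among the structural β genes, Psmb2 had the lowest value, with 3192 in co-culture, 4829 in conditioned medium and 4577 in regular medium, a difference of -0.52. Psmb1, Psmb3 and Psmb4 lay between -0.13 and 0.05, so 4 of the 7 β genes were lower and the median was -0.13.

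By the brightest probe set of each gene, the ATPase ring, which unfolds substrates, had 3 genes near 0 and 3 lower. Psmc3 had the lowest difference of all members, with signals of 3638 in co-culture, 6527 in conditioned medium and 6460 in regular medium. That is 1.78-fold lower than in regular medium, and 4.68% of all tested genes lay below it. Psmc1 had 5343 in co-culture, 5332 in conditioned medium and 5051 in regular medium, a difference of 0.08. Psmc4 and Psmc2 were at 0.00 and 0.02, and Psmc6 and Psmc5 at -0.27 and -0.37. The probe set of Psmc2 is marked for possible cross-hybridisation, and another bright one, without the mark, gave -0.45. Other bright probe sets gave -0.11 for Psmc4, and -0.14 and 0.33 for Psmc6. The ring's median was -0.13.

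By the brightest probe set of each gene, the other base subunits were all lower in co-culture, at -0.38 to -0.27. Psmd1, a scaffold of the base, had 5342 in co-culture, 6969 in conditioned medium and 6962 in regular medium, a difference of -0.38. Psmd4, a receptor for ubiquitin chains, had 5258 in co-culture, 6711 in conditioned medium and 6341 in regular medium, a difference of -0.27. Another bright probe set of Psmd4 gave -0.51. Psmd2, the other scaffold, was at -0.38.

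The lid, which holds the enzyme that cuts chains off the substrate, had the widest interquartile range of the parts (0.52), with 7 of 8 genes lower and a median of -0.22. Psmd7, the inactive partner of that enzyme, had signals of 3558 in co-culture, 5839 in conditioned medium and 5837 in regular medium, 1.64-fold lower in co-culture. Psmd13, a structural lid subunit, had 1349 in co-culture, 2140 in conditioned medium and 2179 in regular medium, 1.62-fold lower. Psmd12, another structural subunit, had 3853 in co-culture, 6271 in conditioned medium and 5640 in regular medium, a difference of -0.55. In these 3 genes the co-culture signal lay below both others. Psmd14, the chain-cutting enzyme itself, was at -0.23 and Psmd11 at -0.21. Psmd3 and Psmd8 were each at -0.06, and Psmd6 had 6583 in co-culture, 6389 in conditioned medium and 6368 in regular medium, a difference of 0.05.

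None of the 3 measured activators was lower in co-culture by its brightest probe set, although Psme3 and Psme4 lay near 0. Psme1, the interferon-inducible PA28α subunit whose first bases are shown above, had 3804 in co-culture, 2628 in conditioned medium and 2597 in regular medium. This is 1.46-fold higher in co-culture, and 81.6% of all tested genes lay below it. Psme3, the nuclear PA28γ, had 2693 in co-culture, 2855 in conditioned medium and 2639 in regular medium, a difference of 0.03. Psme4, the PA200 cap, had 5430 in co-culture, 4823 in conditioned medium and 5196 in regular medium, a difference of 0.06. Another bright probe set of Psme3 gave -0.20, and those of Psme4 gave 0.14 and -0.25. Taking the brightest probe set of each gene, Psme1 was thus the 1 member above 0.25, a size that 35.8% of all measured genes passed. Less bright probe sets of other members also passed 0.25, at 0.33 for Psmc6, 0.31 for Psmd6, 0.30 for Psma6 and 0.26 for Psmb3.

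**Figure D3:**
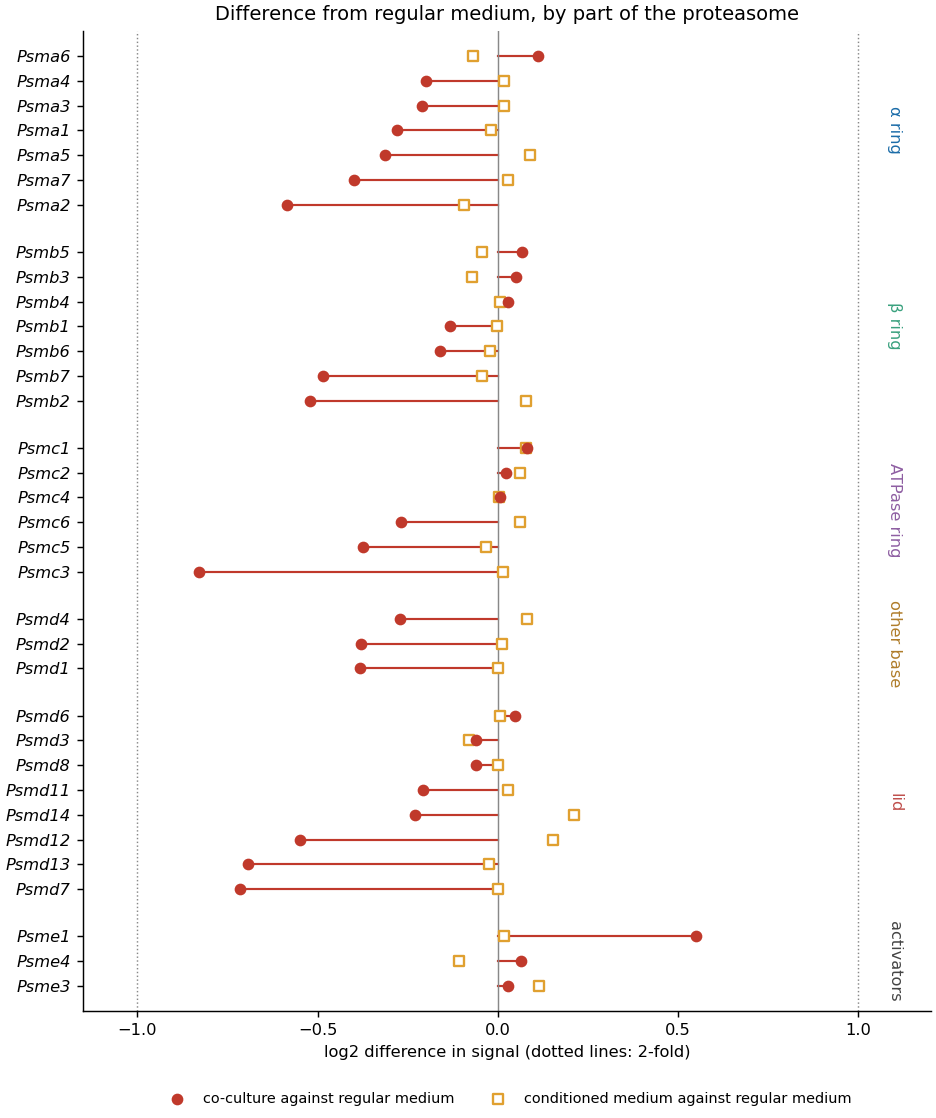
Log2 difference in signal from regular medium for each proteasome gene, by part of the complex, in co-culture (filled points with a line to 0) and in conditioned medium (open squares). The conditioned-medium squares lie between -0.11 and 0.21, and the co-culture points lie between -0.83 and 0.55, inside the dotted 2-fold lines.

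Other probe sets of the same gene give the only error that these arrays offer, and it leaves out variation between arrays and between cultures. Of the 77 probe sets, 59 were bright on at least 1 array, and 56 were bright on all 3. Of these 56, 38 (67.9%) were lower in co-culture than in regular medium, with a median of -0.21. For the 18 members with more than 1 probe set bright on at least 1 array, the 2 brightest had the same sign in 15 and differed by a median of 0.19 (largest 0.47). Over 4561 genes of the array with 2 or more such probe sets, the median was 0.31. These values include pairs in which a probe set was not bright on every array, such as that of Psmd7, which counts among the 15. The second probe set of Psmd13 gave -0.57 beside -0.69. That of Psmd7 had 126.5 in co-culture, 242 in conditioned medium and 237 in regular medium, and since it reached the measured level of 149.3 only outside co-culture, its -0.91 is no independent check of the -0.71. The pairs of Psmc2, Psmc4 and Psme3 had opposite signs, and Psmc2 was at 0.02 by its brightest probe set, whose name marks possible cross-hybridisation, and -0.45 by the other. In all, 14 members had 1 probe set each, so they have no such check. Among them are Psmc3, Psma2, Psmb2, Psmd12, Psme1 and the catalytic genes Psmb5, Psmb6 and Psmb7. Psmc1 and Psmd2 have none either, since their other probe set was not bright.

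**Figure D4:**
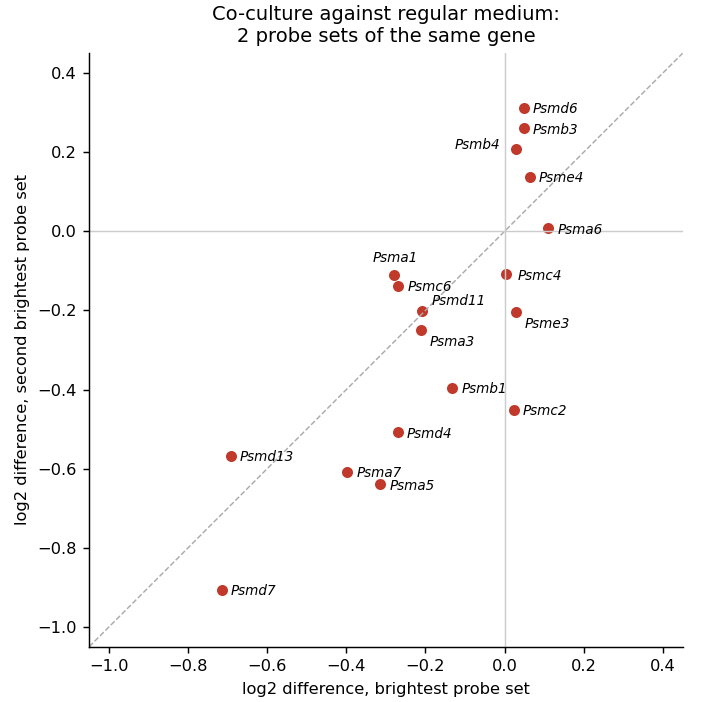
Log2 difference in signal, co-culture against regular medium, by the brightest (horizontal) and second brightest (vertical) probe set of the 18 members with more than 1 bright probe set, with 1 point per gene and a dashed line of equality. Psmd13 is low by both, the second value of Psmd7 comes from a probe set below the measured level in co-culture, and Psmc2, Psmc4 and Psme3 have opposite signs.

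The inducible counterparts of the catalytic subunits were compared with the subunits they replace, as differences between arrays. Psmb8 had 3361 in co-culture, 938 in conditioned medium and 914 in regular medium, a log2 difference of 1.88 in co-culture against regular medium, beside 0.07 for Psmb5. Psmb9 had 715 in co-culture, 228 in conditioned medium and 228 in regular medium, a difference of 1.65, beside -0.16 for Psmb6. Psmb10 had 2911 in co-culture, 1900 in conditioned medium and 2076 in regular medium, a difference of 0.49, beside -0.49 for Psmb7. The inducible gene thus exceeded its counterpart by 1.81, 1.81 and 0.97 on the log2 scale in these pairs. In conditioned medium against regular medium the same contrasts were 0.08, 0.02 and -0.08.

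Among genes that act with the proteasome, none of 15 measured assembly factors and bound proteins (of 17 listed) differed by 2-fold in co-culture against regular medium. Of these 15, 7 were lower (46.7%), near the 44.0% of all measured genes, with a median log2 difference of 0.12. Psmg3, an assembly chaperone of the core, was at 0.41 and Akirin2, which brings proteasomes into the nucleus, at 0.37. Uchl5, a deubiquitinase of the base, was at -0.69 and Psmd10, an assembly chaperone of the base, at -0.46. Of 12 measured genes for ubiquitin supply, shuttles and proteasome gene control (of 19 listed, the others not analysed here), 9 were higher in co-culture. The other 3 (25%) were lower, against 44.0% of all measured genes. The list's median was 0.32, against 0.07 over all measured genes. Nfe2l1, which encodes NRF1, had 3924 in co-culture, 1846 in conditioned medium and 1891 in regular medium, 2.08-fold higher by its only probe set. Its log2 difference of 1.05 passed 2-fold as reported and was 0.98, short of 2-fold, with the median of all measured genes set to 0. Sqstm1, a receptor for ubiquitinated cargo in autophagy, had a difference of 0.96, short of 2-fold, and passed 2-fold after scaling the arrays to equal medians and, at 1.09, after quantile normalization. Vcp, the ATPase that pulls ubiquitinated proteins from complexes, was at -0.55 and its partner Nploc4 at -0.26. Ufd1, the other partner of Vcp, went the other way, at 0.61 by its brightest probe set and 0.21 by another bright one. The 5 members with TGACNNNGC in their promoters lay between -0.55 (Psmd12) and 0.07 (Psmb5) beside the Nfe2l1 value, and how these relate was not tested.

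Genes of 2 further lists differed on the same array. Of 6 measured (7 listed) class I loading and interferon genes, Tap1, Tap2, Nlrc5, Irf1 and Tapbp were at least 2-fold higher in co-culture, at 2.64, 2.03, 1.40, 1.37 and 1.12 on the log2 scale, with B2m at 0.34. Of all genes tested, 5.81% were at least 2-fold higher. Another bright probe set of Tapbp gave 0.36. Tap1 had 678 in co-culture, 92.6 in conditioned medium and 109 in regular medium, so it reached the measured level of 149.3 only in co-culture. Its other probe sets lay below the floor on every array, so the 2.64 has no check. All 7 measured (8 listed) proliferation genes were lower, against 44.0% of all measured genes, with a median of -0.95. Kif11 (-2.00), Ccna2 (-1.52) and Plk1 (-1.44) passed 2-fold, although the other probe sets of Kif11 gave -0.75 and -0.51. The 12 MSC and fibroblast markers had a summed signal of 2723 in co-culture, 1569 in conditioned medium and 1312 in regular medium, of which 4 were bright in co-culture and 2 in each of the other conditions. Col1a1, Pdgfrb, Dcn, Thy1 and Mgp lay at or below the floor on all 3 arrays, and Postn made up most of the sum, with 1803 in co-culture, 950 in conditioned medium and 766 in regular medium, 2.35-fold higher in co-culture than in regular medium. Bgn, a matrix proteoglycan gene, had 181.5 in co-culture, 57.8 in conditioned medium and 12.3 in regular medium, at least 4.28-fold higher in co-culture with the regular-medium signal raised to the floor. The other 2 probe sets of Bgn stayed below 149.3 on every array. Of the 5 measured markers of this list, 4 were higher in co-culture than in regular medium and 1 was lower. Of the 9452 measured genes, 5288 were higher and 4161 lower. The lower marker was Col6a2, with 126.9 in co-culture, 147.5 in conditioned medium and 191.1 in regular medium, a log2 difference of -0.59. Col1a2 and Bgn reached 149.3 only in co-culture, Pdgfra not in regular medium, and Col6a2 only in regular medium. These genes thus counted as measured only through arrays where they were high, so the count says little about direction. The 4 leukocyte markers summed to 774 in co-culture, 699 in conditioned medium and 678 in regular medium. The part of these lists in the proteasome values was not tested.

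**Figure D5:**
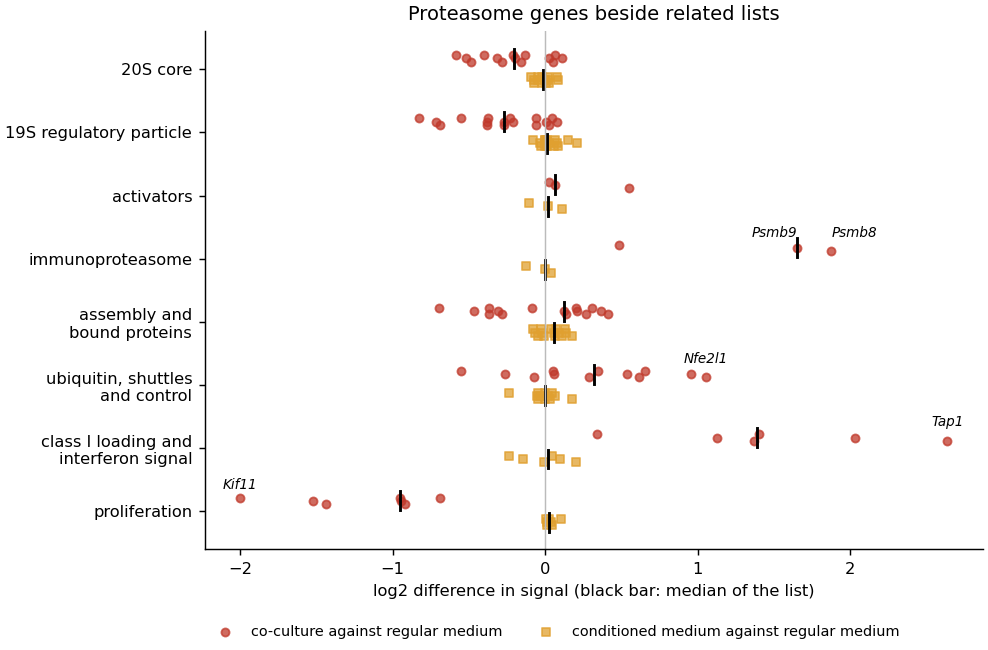
Log2 difference in signal of each measured gene (points) from regular medium, in co-culture (circles) and conditioned medium (squares), with the median of each list as a black bar. In co-culture the medians are -0.21 for the core and -0.27 for the regulatory particle, against 1.65 for the immunoproteasome, 0.32 for the ubiquitin list and -0.95 for proliferation.

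Cells in conditioned medium were set against those in regular medium to describe exposure to secreted factors without contact. The proteasome genes hardly differed between these 2 arrays. All 34 differences lay between -0.11 (Psme4) and 0.21 (Psmd14), 30 of them within 0.1 of 0, and their median was 0.01 (interquartile range -0.02 to 0.05), beside 0.01 over all measured genes. The interquartile width was 0.08 for the members and 0.10 for all genes above the 95th percentile of signal. Of the 34 members, 0 were 2-fold higher or lower, against 0.109% and 0.306% of 9152 genes tested, and 0 passed 1.5-fold, against 0.754% higher and 1.46% lower. Signals were lower for 12 of 34 members (35.3%), against 46.3% of all genes, but for 19 after quantile normalization, 18 with the median of all measured genes set to 0, and 0 after scaling the arrays to equal medians, which moved the median of all measured genes to 0.17. Psmd14, with 8871 in co-culture, 12049 in conditioned medium and 10412 in regular medium, and Psmd12 at 0.15 had the largest values above 0.

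Co-culture was also compared with conditioned medium, a comparison that shares the co-culture array with the first. The members' median was -0.23 (interquartile range -0.42 to 0.00), against 0.07 over all measured genes, and 24 of 34 members (70.6%) were lower, against 44.0% of 9350 genes tested. None was 2-fold higher or lower, against 5.83% and 2.60% of all genes. At 1.5-fold, Psmc3 (-0.84), Psmd7 (-0.71), Psmd12 (-0.70), Psmd13 (-0.67) and Psmb2 (-0.60) were lower, 14.7% of members against 9.95% of all genes. Psme1 was again the highest, at 0.53. The count of lower members was 22 after quantile normalization, where 44.1% of all measured genes were lower, and 29 with the median of all measured genes set to 0, which fixes their share at 50%.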

How the data were processed

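Per the labels' protocols, 5 ug of total 4T1 RNA was made into biotinylated cRNA for the arrays, which are Affymetrix Mouse Genome 430 2.0. The deposited values are linear intensity values (MAS5 signals), per the submitters' processing notes. Neither the MAS5 version nor its target level is given in the sources used here. The 2%-trimmed means were nearly equal (498.0, 497.7 and 497.8 for co-culture, conditioned medium and regular medium), so no scaling was added.

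Probe sets with 1 gene symbol (34945) were kept, 932 with several and 9160 unnamed were not, and symbols were updated through the gene ID. Each gene was represented by its probe set of highest mean signal. Signals below the pooled 40th percentile (42.4) were set to it before log2. Genes reaching the pooled 60th percentile (149.3) on at least 1 array count as measured. A gene was tested in a comparison when the brighter of its 2 signals reached that level, and called at 2-fold. With 1 array per group there is no test, and precision is limited by the number of arrays. Groups came from the labels.

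The members, lists and settings were chosen with earlier results of these data known. Named genes were the activators, the catalytic subunits, members past 1.5-fold in any comparison, the highest and lowest member of each part of the complex, and, in the other gene lists, genes past 2-fold and the 2 largest in each direction. Cell type markers past 2-fold (Krt14, Postn and Bgn) are named outside this rule, chosen after their values were seen. So are Col6a2, Col1a2 and Pdgfra, the other measured MSC and fibroblast markers, and Ufd1, a partner of Vcp. Other members appear with differences only. Medians are given beside those of all measured genes. Alternatives covered scaling, floor, filter, probe set choice, fold and, added after seeing the data, centring and stricter filters. The procedure was tested on simulated data with known fold changes, shared by all probe sets of a gene. That checks the calculation only, and not the scatter between probe sets or between arrays. Python 3.11.15, NumPy 2.4.6, pandas 2.3.3, SciPy 1.17.1 and Matplotlib 3.10.9 were used.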

Additional observations from a re-analysis of the deposited data

How the results depend on the processing

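The members' median log2 difference stayed below 0 in all settings for co-culture, between -0.28 and -0.072 against regular medium and between -0.30 and -0.14 against conditioned medium. Scaling the arrays to equal medians gave -0.072 for co-culture against regular medium and 0.16 for conditioned medium against regular medium, with all measured genes at 0.21 and 0.17, so relative to all genes the members were at -0.28 and -0.01. Against all genes above the 95th percentile of signal the gap in co-culture was -0.17. With conditioned medium against regular medium, 0 members were lower after equal-median scaling and 19 after quantile normalization, in place of 12. The 1.5-fold rule gave 4 lower members in co-culture against regular medium and 5 against conditioned medium, where the 2-fold rule gave 0. For single members in co-culture against regular medium, 20 were lower and 3 (Psma6, Psmc1 and Psme1) higher in all 8 settings, and 11 turned direction in at least 1 (Psmb1, Psmb3, Psmb4, Psmb5, Psmc2, Psmc4, Psmd3, Psmd6, Psmd8, Psme3 and Psme4). The lowest value over these settings was 0.01 for Psma6 and 0.01 for Psmc1. No paired analysis was possible because each condition has 1 array. A difference of the size of the scatter between probe sets of a gene cannot be told from that scatter (median 0.19 for 18 members, 0.31 over 4561 genes). Probe sets share the same arrays, so without replicates the variation between arrays and between cultures is unknown for differences of any size.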
